A study of Mus musculus with 58 samples.

Results

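Sox17, Foxa2, Gata6, T, Pax6 and Olig2 encode transcription factors that direct the formation of embryonic tissues. Acetylation of histone H3 at lysine 27 (H3K27ac) over these genes was followed in full-grown oocytes, which are at the end of their growth in the ovary. Each gene was represented by a fixed interval of the mm9 genome with flanks: 40 kb for Sox17, Foxa2 and T, 45 kb for Olig2, and 65 kb for Gata6 and Pax6. These positions were taken as given and not checked against an mm9 annotation. The 6 intervals cover 295 kb and hold 59 windows of 5 kb, of 527783 such windows on the autosomes and X. The series maps histone marks in mouse oocytes and preimplantation embryos with STAR ChIP-seq, a form of chromatin immunoprecipitation suited to few cells, and holds 58 samples. Of these, 4 carry H3K27ac: 2 replicates of oocytes labelled Setd2-/- and 2 replicates of oocytes labelled Setd2+/-. The series describes the knockout as maternal, and the control oocytes carry 1 disrupted allele by their label. No source used here gives the driver of the deletion or the number of animals. The treatment text of the labels, which covers several stages, names females of 8 weeks injected with the hormones PMSG and hCG. The authors pooled both replicates of a genotype into 1 track. No spread between replicates was therefore measurable, and no test was made.

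Genes of this kind are textbook targets of Polycomb group proteins. Polycomb repressive complex 2 places H3K27me3 over their CpG-rich promoters in cells that do not use them, and acetylation of the same lysine excludes that methylation. SETD2 places H3K36me3 over transcribed gene bodies, a mark that hinders Polycomb repressive complex 2. H3K27ac marks active promoters and enhancers. H3K27me3 and expression were not analysed here, so whether these loci carried Polycomb marks in these oocytes was not examined. The label of the cells could not be checked against oocyte markers either, since the tracks hold signal by position and no annotation of mm9 was used.

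Promoter sequence did not enter the rule that set the intervals. CpG-rich promoters were, however, named above as a trait of genes of this kind, so the counts below are a description. RefSeq promoters, 250 bases before to 50 after a transcription start, matched 4 of the 6 genes, with 1 promoter for T, 1 for Olig2, 2 for Pax6 and 3 for Foxa2. Sox17 and Gata6 had no entry. The promoter with the most CpG dinucleotides (the letters CG, which read the same on both strands) is shown for each gene to let its CpG density be seen, with every CG in capitals. The coordinates are those of GRCm38.p6 and are not positions in the mm9 tracks.
Foxa2 (GRCm38.p6, chr2:148045899-148046198, minus strand): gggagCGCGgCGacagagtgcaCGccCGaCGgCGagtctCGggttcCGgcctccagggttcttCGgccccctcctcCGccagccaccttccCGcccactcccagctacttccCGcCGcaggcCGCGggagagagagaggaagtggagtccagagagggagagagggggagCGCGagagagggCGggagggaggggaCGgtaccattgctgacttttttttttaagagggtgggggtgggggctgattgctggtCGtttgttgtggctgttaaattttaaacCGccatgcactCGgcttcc
T (GRCm38.p6, chr17:8434173-8434472, plus strand): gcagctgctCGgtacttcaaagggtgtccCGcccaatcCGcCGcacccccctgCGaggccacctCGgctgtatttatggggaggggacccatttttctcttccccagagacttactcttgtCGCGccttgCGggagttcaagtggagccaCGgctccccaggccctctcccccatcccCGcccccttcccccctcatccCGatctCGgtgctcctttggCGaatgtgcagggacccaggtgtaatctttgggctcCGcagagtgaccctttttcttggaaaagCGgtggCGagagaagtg
Pax6 (GRCm38.p6, chr2:105668646-105668945, plus strand): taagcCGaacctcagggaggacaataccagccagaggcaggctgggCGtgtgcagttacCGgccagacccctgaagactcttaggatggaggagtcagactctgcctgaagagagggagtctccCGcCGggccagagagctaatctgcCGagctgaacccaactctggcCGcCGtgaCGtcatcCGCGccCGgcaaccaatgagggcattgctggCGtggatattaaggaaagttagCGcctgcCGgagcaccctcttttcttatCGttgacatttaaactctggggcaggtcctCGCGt
Olig2 (GRCm38.p6, chr16:91225300-91225599, plus strand): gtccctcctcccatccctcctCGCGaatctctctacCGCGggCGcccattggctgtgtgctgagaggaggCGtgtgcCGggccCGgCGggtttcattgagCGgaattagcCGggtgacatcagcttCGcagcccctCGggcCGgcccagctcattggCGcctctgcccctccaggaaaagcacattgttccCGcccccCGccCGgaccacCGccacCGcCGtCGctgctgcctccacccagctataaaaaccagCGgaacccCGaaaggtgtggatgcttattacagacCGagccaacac
The Olig2 promoter held 25 CG in 300 bases, that of Foxa2 23, that of Pax6 18 and that of T 17, against a median of 7 over all 32851 promoters of the table. Of all promoters, 81.6% held fewer CG than that of Olig2, 78.5% fewer than that of Foxa2, 70.3% fewer than that of Pax6 and 68.6% fewer than that of T. These are shares of all promoters, whereas the richest promoter of each gene is shown. With each gene taken by its richest promoter, 79.8% of genes held fewer CG than Olig2 and 76.5% fewer than Foxa2. The shares were 67.9% for Pax6 and 66.1% for T. A CG occurred at least once in 94.6% of all promoters. The other 3 promoters of Pax6 and Foxa2 held 16, 13 and 12 CG. A list of 24 other developmental regulators, Olig1, Sox1 and Eomes among them, was matched for 16 genes, whose richest promoters held 9 to 40 CG with a median of 21.5. Of all genes, 74.8% held fewer CG than that median in their richest promoter. The 24 genes of the list could not be placed on the tracks for lack of an mm9 annotation.

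The tracks give reads scaled to bin length and library size (RPKM) in bins of 100 bp, computed by the authors. Values were whole multiples of that of 1 read within 0.005 RPKM in all but 3 knockout bins, so reads could be recovered: 29367645 reads for knockout and 30694806 for control. The 59 windows held 4902 knockout and 4453 control reads. Reads were unevenly spread in these windows, with a variance over bins of 3.63 times the mean for knockout and 2.06 times for control, where independent reads would give 1. Over autosomal windows with at least 1 read per bin on average, it was 14.7 times for knockout and 2.49 times for control. The autosomal background of knockout, used below, was thus far more clumped than that of control. At least 1 read was found in 47.8% of their bins for knockout and 57.6% for control, and over the autosomes in 33.6% of bins for knockout and 44.0% for control. All error ranges given here are exact 95% intervals that allow for counting error alone, so for such reads they are too small.

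The 6 loci spanned a wide range of acetylation in both genotypes and kept the same order. Sox17 was highest, with 0.916 RPKM in knockout oocytes and 0.805 RPKM in control oocytes. T followed with 0.826 and 0.628 RPKM, and Gata6 with 0.713 and 0.627 RPKM, in knockout and control. Olig2 had 0.412 RPKM in knockout and 0.471 RPKM in control, and Pax6 had 0.363 RPKM in knockout and 0.315 RPKM in control. Foxa2 was lowest, with 0.221 RPKM in knockout and 0.134 RPKM in control. Some neighbouring pairs in this order were not separated by counting error. Sox17 (0.862 to 0.973 RPKM) and T (0.775 to 0.880 RPKM) overlapped in the knockout pool. So did Pax6 (0.337 to 0.391 RPKM) and Olig2 (0.378 to 0.448 RPKM) in that pool. In the control pool Gata6 (0.592 to 0.662 RPKM) and T (0.584 to 0.674 RPKM) overlapped.

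Set beside all autosomal tiles of the same length that held a read, Sox17, T and Gata6 lay in the upper part of the genome and Foxa2 in the lower. Sox17 exceeded 91.9% of tiles in knockout and 95.5% in control. T exceeded 88.7% and 81.8%, and Gata6 84.6% and 83.9%, in knockout and control. Olig2 stood near the middle, above 62.1% of tiles in knockout and 61.8% in control, and so did Pax6, above 56.0% in knockout and 39.1% in control. Foxa2 exceeded 37.7% of tiles in knockout and 21.2% in control.

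**Figure D1:**
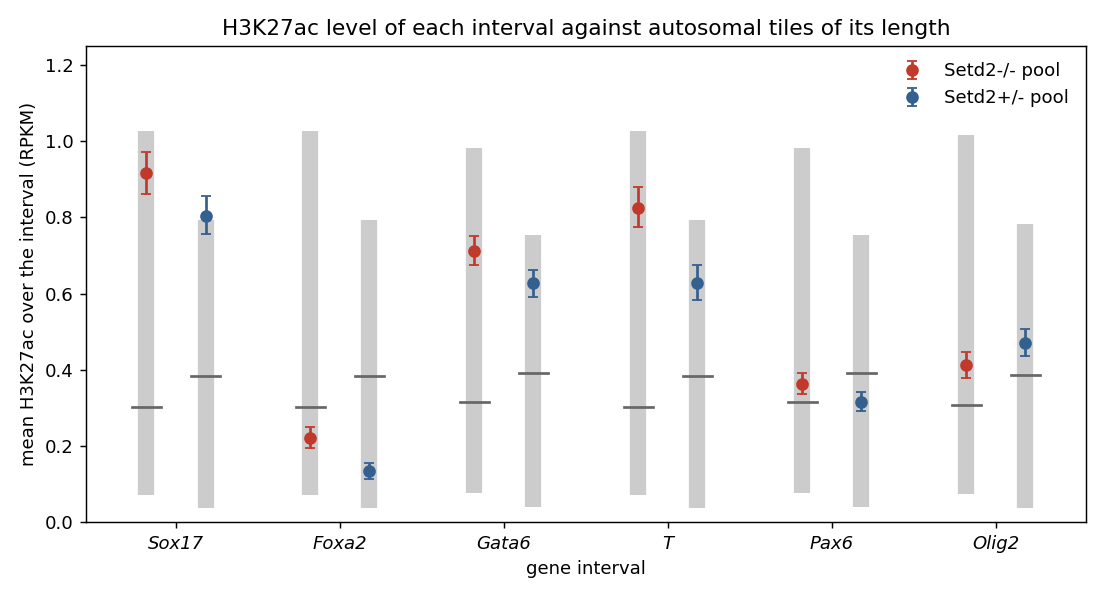
Mean H3K27ac in RPKM over each gene interval in the Setd2-/- pool (red, left) and the Setd2+/- pool (blue, right); bars on points are exact 95% counting intervals, grey bands run from the 5th to the 95th percentile of autosomal tiles of the same length and grey lines mark their median. Sox17 lies highest, at 0.916 RPKM in knockout and 0.805 RPKM in control, and Foxa2 lowest, at 0.221 RPKM in knockout and 0.134 RPKM in control.

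Over whole intervals the genotypes differed little. The ratio of knockout over control was above 1 at 5 loci and below 1 at Olig2. It was 1.64 (1.34 to 2.01) at Foxa2, 1.32 (1.20 to 1.45) at T, 1.15 (1.03 to 1.28) at Pax6, 1.14 (1.04 to 1.24) at Sox17, 1.14 (1.05 to 1.23) at Gata6 and 0.875 (0.779 to 0.982) at Olig2. On the scale of log2(RPKM + 0.1), which understates differences of low regions, the log2 ratios of the 6 intervals ran from -0.16 to 0.45 with a median of 0.16, and autosomal tiles of these lengths had medians of 0.06. The values moved with the ends of the intervals: with 10 kb taken off each end the log2 ratio of Foxa2 was 0.93 in place of 0.45 and that of T 0.14 in place of 0.35, and with 10 kb added at each end that of Sox17 was 0.041 in place of 0.17. None of the 6 reached 2-fold on that scale in either direction. Among autosomal tiles, 5.03% of those of 40 kb, 4.78% of those of 45 kb and 4.19% of those of 65 kb were at least 2-fold higher in knockout, and 7.7%, 7.42% and 6.76% at least 2-fold lower. With shares this small, a count of 0 among 6 is near the background. Foxa2, the highest of the 6, exceeded 74.0% of 40 kb tiles in its log2 ratio and Olig2, the lowest, 38.0% of 45 kb tiles.

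In windows of 5 kb, larger differences appeared inside 4 of the loci, Foxa2, Gata6, Pax6 and Olig2, and nowhere at Sox17 or T. An average over both pools of 0.379 RPKM or more, which is the mean of the whole genome, was reached by 41 of the 59 windows (69.5%, against 43.2% of autosomal windows with a read): all windows of Sox17, T and Gata6, 7 of 9 at Olig2, 5 of 13 at Pax6 and 0 of 8 at Foxa2. Of these 41, 1 window (2.44%) was at least 2-fold higher in knockout, against 12.2% of autosomal windows past that filter, and 2 (4.88%) were at least 2-fold lower, against 13.4%. With the X chromosome included the shares were 11.6% higher and 15.2% lower. The filter keeps a window that is high in 1 pool alone, so its counts are a description. Without the filter, 6 of 59 windows (10.2%) were at least 2-fold higher and 4 (6.78%) at least 2-fold lower, against 9.42% and 12.1% of autosomal windows with a read. Of the 6 higher windows, 3 lay at Foxa2, 2 at Pax6 and 1 at Olig2, and of the 4 lower windows, 2 lay at Pax6, 1 at Gata6 and 1 at Olig2. The share higher lay near the background and the share lower under it. Above 0 were the log2 ratios of 37 of the 59 windows (62.7%) and of 52.2% of autosomal windows. The median log2 ratio was 0.22 over the 59 windows and 0.04 over the autosomal windows.

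**Figure D2:**
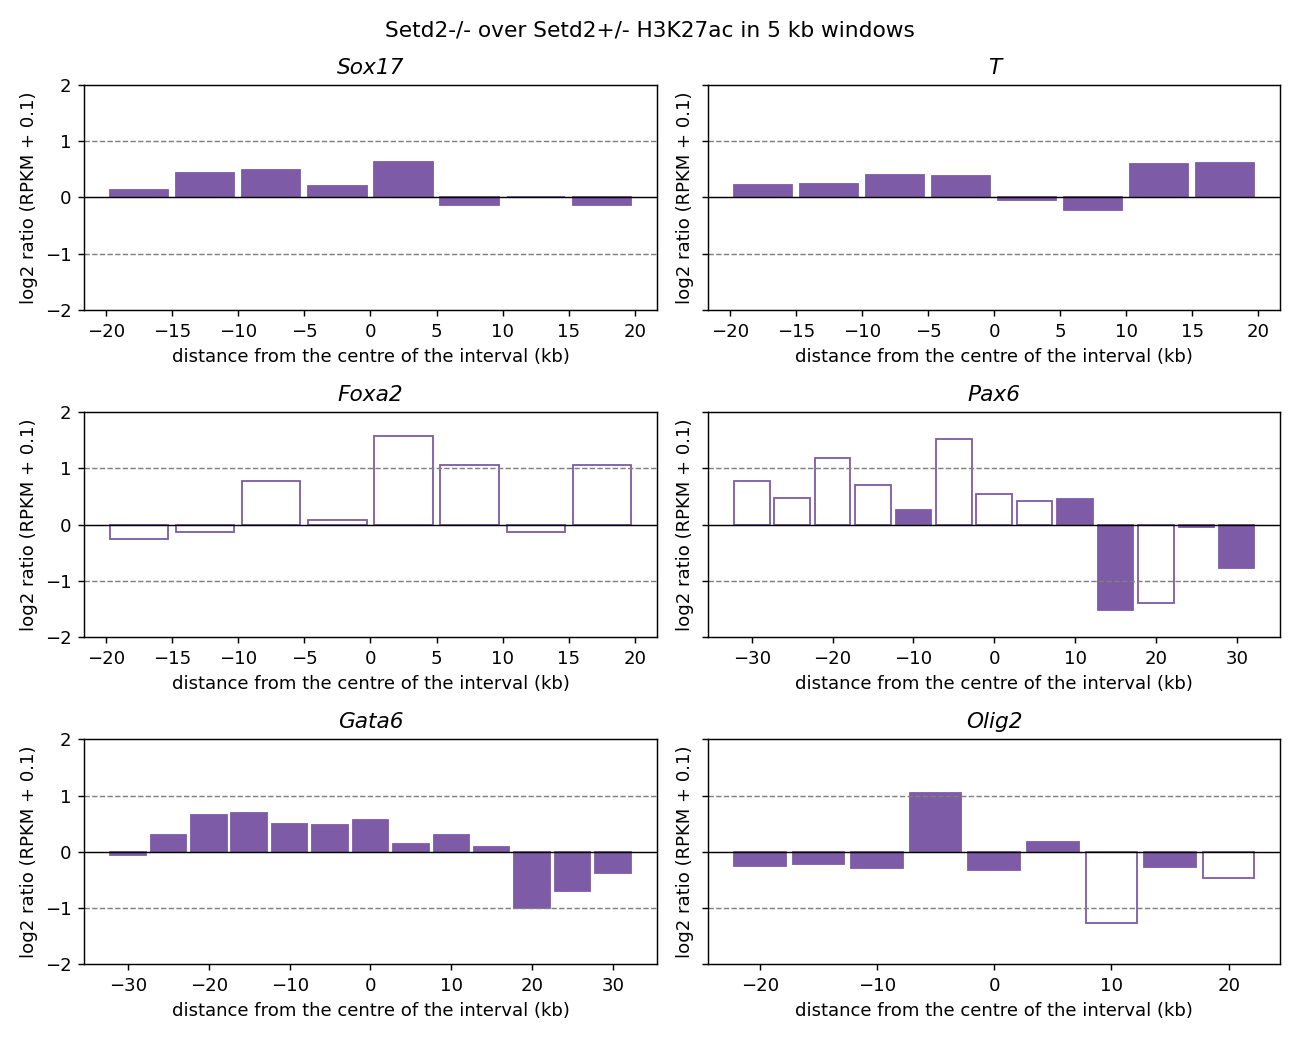
Log2 ratio of Setd2-/- over Setd2+/- H3K27ac (RPKM + 0.1) in each 5 kb window, by distance from the centre of its interval in kb; filled bars reach the mean of the genome, open bars lie under it and dashed lines mark 2-fold. Sox17 and T stay within 2-fold throughout, whereas windows of Pax6 run from -1.51 to 1.52.

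Among the endoderm genes, Foxa2, a forkhead factor of endoderm, node and floor plate that can open closed chromatin, had the largest relative difference and the least acetylation. In the first 20 kb of its interval (chromosome 2, 147850001 to 147870000) the means were close, with 0.250 RPKM in knockout and 0.228 RPKM in control. Of the 4 windows there, 2 were higher and 2 lower in knockout, with log2 ratios from -0.26 to 0.78. In the last 20 kb, from 147870001 to 147890000, the knockout pool had 112 reads and 0.191 RPKM, and the control pool 25 reads and 0.0407 RPKM, a 4.68-fold difference (3.01 to 7.54). Of the 4 windows in that part, 3 were higher and 1 lower in knockout, with log2 ratios from -0.13 to 1.57. This division of the interval was made after its values were seen. The highest window, at 147870001 to 147875000, had 0.409 RPKM in knockout and 0.0717 RPKM in control, or 60 and 11 reads, with a log2 ratio of 1.57. It held the top 1 kb of the knockout pool, with 0.749 RPKM, where control had 0.130 RPKM. The last window, with 22 and 3 reads in knockout and control, had a log2 ratio of 1.06 and a ratio of 7.67 whose counting interval was 2.30 to 40.0. The lowest log2 ratio, -0.26, was that of the first window, which had 0.245 RPKM in knockout and 0.313 RPKM in control. In that window also lay the top 1 kb of control, which had 0.170 RPKM in knockout and 0.521 RPKM in control.

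Acetylation declined along the chromosome around Foxa2. The 100 kb before the interval had 0.643 RPKM in knockout and 0.479 RPKM in control, and the 100 kb after it 0.0974 RPKM in knockout and 0.0293 RPKM in control. In the poor sequence after the interval, all 20 windows of 5 kb were higher in knockout, 3 of them at least 2-fold on the scale with the pseudocount, and the ratio was 3.32 (2.61 to 4.26). The higher knockout signal in the second part of the Foxa2 interval thus continued beyond it, at a very low level. Very low levels were also higher in knockout over the autosomes. The 5th percentile of 40 kb tiles with a read was 0.0715 RPKM in knockout and 0.0367 RPKM in control. Their 25th percentile was 0.154 RPKM in knockout and 0.169 RPKM in control. Whether the difference around Foxa2 goes beyond this trait of the pools was not tested.

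Gata6, a zinc finger factor of the primitive endoderm and the heart, had a high mean in both pools, and its difference changed direction along the interval. Its 13 windows had 0.232 to 1.19 RPKM in knockout and 0.332 to 0.971 RPKM in control. In the first 50 kb (chromosome 18, 11035001 to 11085000) 9 of 10 windows were higher in knockout, with means of 0.802 RPKM in knockout and 0.609 RPKM in control, a ratio of 1.32 (1.21 to 1.44). In the last 15 kb all 3 windows were lower, with 0.413 RPKM in knockout and 0.684 RPKM in control, a ratio of 0.604 (0.5004 to 0.727). This division too was made after the values were seen. The highest log2 ratio, 0.69, was that of the window at 11050001 to 11055000, with 0.599 RPKM in knockout and 0.332 RPKM in control. The lowest, -1.01, was that of the window at 11085001 to 11090000, with 0.232 RPKM in knockout and 0.567 RPKM in control. A peak of 1 kb at 11079001 to 11080000 stood out in both pools, with 2.32 RPKM in knockout, its maximum there, and 1.40 RPKM in control. The control maximum, 1.47 RPKM, lay at 11097001 to 11098000, where knockout had 0.954 RPKM. The mean of the 100 kb before the interval was higher in knockout, with 0.899 RPKM against 0.673 RPKM in control. That of the 100 kb after it was lower, with 0.171 RPKM against 0.272 RPKM, a ratio of 0.628 (0.561 to 0.703). Single windows were mixed on both sides. Of 20 before the interval, 13 were higher and 7 lower in knockout, and of 20 after it, 9 were higher and 11 lower.

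Sox17, a high mobility group factor needed for definitive endoderm, was the most acetylated of the 6 and differed little over its whole interval. Its 8 windows had 0.606 to 1.17 RPKM in knockout and 0.404 to 1.16 RPKM in control. The first 5 windows were all higher in knockout, with a ratio of 1.34 (1.19 to 1.51). They held the highest log2 ratio, 0.63, at chromosome 1, 4485001 to 4490000, where knockout had 1.04 RPKM and control 0.632 RPKM. The last 3 windows were nearly equal, with 1.02 RPKM in knockout and 1.09 RPKM in control, and held the lowest log2 ratio, -0.13, at 4490001 to 4495000. As at Foxa2, the stretches were set apart after their values were seen. Knockout had its top 1 kb at 4496001 to 4497000, with 2.08 RPKM, against 1.30 RPKM in control. Control had its own at 4498001 to 4499000, with 0.579 RPKM in knockout and 1.63 RPKM in control. From 4474001 to 4476000 neither pool had a read. The interval stood above the means of its surroundings. The 100 kb before it had 0.639 RPKM in knockout and 0.505 RPKM in control. The 100 kb after it had 0.198 RPKM in knockout and 0.234 RPKM in control. The rich stretch was not confined to the interval, as the 5 kb just before it had 0.845 RPKM in knockout and 1.06 RPKM in control.

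T, the T-box factor brachyury of mesoderm and notochord, had more acetylation in knockout in the first 4 and the last 2 windows of its interval, and slightly less in the 2 windows between. Its 8 windows had 0.416 to 1.56 RPKM in knockout and 0.404 to 0.984 RPKM in control. The last 10 kb (chromosome 17, 8640001 to 8650000) had 1.54 RPKM in knockout and 0.981 RPKM in control, a ratio of 1.57 (1.35 to 1.82), and its last window had the highest log2 ratio, 0.61. The first 30 kb had 0.588 RPKM in knockout and 0.510 RPKM in control, a ratio of 1.15 (1.01 to 1.31). This division was also made after the values were seen. The lowest log2 ratio, -0.22, was that of the window at 8635001 to 8640000, with 0.416 RPKM in knockout and 0.502 RPKM in control. The top 1 kb of knockout, at 8644001 to 8645000, had 70 reads and 2.38 RPKM, against 0.391 RPKM in control. Control peaked at 8642001 to 8643000, with 0.954 RPKM in knockout and 1.43 RPKM in control. The 100 kb before the interval showed a larger difference than the interval itself, with 1.00 RPKM in knockout and 0.462 RPKM in control, a ratio of 2.17 (2.04 to 2.31). There all 20 windows were higher in knockout and 10 of them at least 2-fold. The 100 kb after the interval had 0.600 RPKM in knockout and 0.469 RPKM in control.

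**Figure D3:**
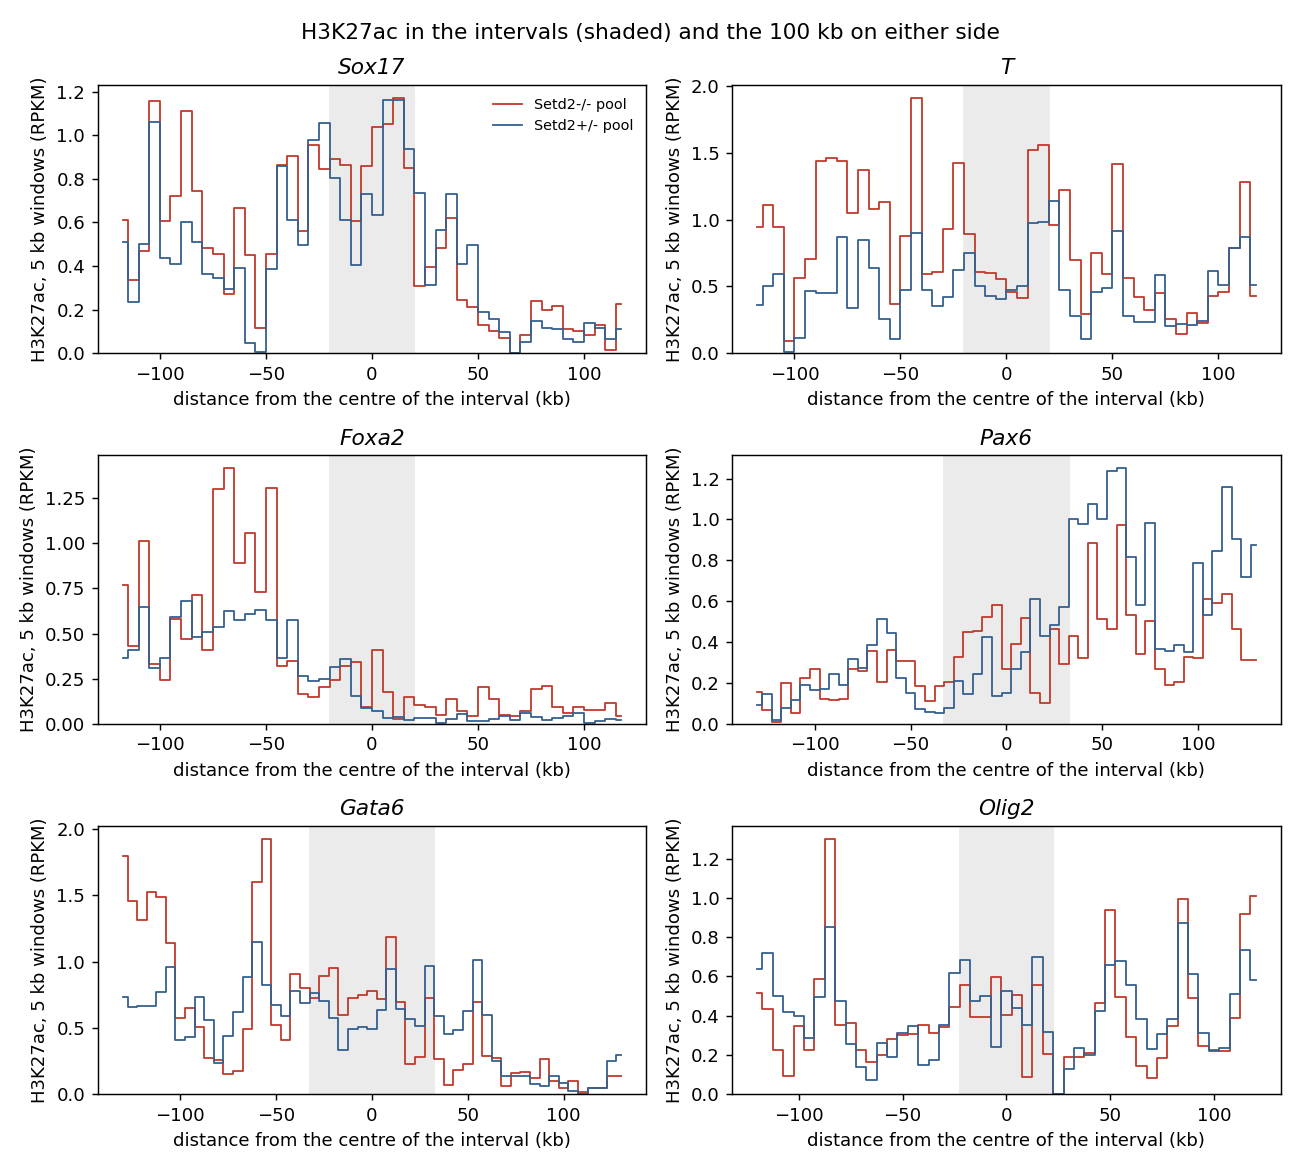
H3K27ac in RPKM per 5 kb window along each interval (shaded) and the 100 kb on either side, by distance from the centre of the interval in kb, in the Setd2-/- pool (red) and the Setd2+/- pool (blue). Knockout lies above control before T, at 1.00 against 0.462 RPKM, and under it after Pax6, at 0.460 against 0.811 RPKM.

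Of the neural genes, Pax6, the paired-box factor of eye and forebrain, showed the clearest exchange of acetylation along a locus. In its first 45 kb (chromosome 2, 105490001 to 105535000) all 9 windows were higher in knockout, with 0.413 RPKM in knockout and 0.222 RPKM in control, a ratio of 1.86 (1.61 to 2.14). In its last 20 kb all 4 windows were lower, with 0.252 RPKM in knockout and 0.525 RPKM in control, a ratio of 0.480 (0.393 to 0.585). The point of division was chosen after the values were seen. These opposite differences nearly cancelled in the mean of the interval, whose log2 ratio of 0.16 became -0.08 with 10 kb added at each end. The highest log2 ratio, 1.52, was that of the window at 105515001 to 105520000, with 85 reads and 0.579 RPKM in knockout and 21 reads and 0.137 RPKM in control. The lowest, -1.51, was that of the window at 105535001 to 105540000, with 22 reads and 0.150 RPKM in knockout and 94 reads and 0.613 RPKM in control. Knockout peaked at 105516001 to 105517000, where 1 kb had 0.988 RPKM, against 0.293 RPKM in control. The top 1 kb of control was the last of the interval, with 0.579 RPKM in knockout and 1.14 RPKM in control.

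The lower acetylation at the end of the Pax6 interval continued past it. The 100 kb after the interval had 0.460 RPKM in knockout and 0.811 RPKM in control, a ratio of 0.567 (0.530 to 0.606), and 19 of its 20 windows were lower in knockout. The 100 kb before the interval was equally poor in both pools, with 0.193 RPKM in knockout and 0.195 RPKM in control. In the GRCm38.p6 annotation, Pax6 lies between Rcn1 and Elp4 among protein-coding genes and overlaps Elp4, which encodes a subunit of the Elongator complex. Which of the windows lie on which of these genes in mm9 was not determined.

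Olig2, a basic helix-loop-helix factor of motor neuron and oligodendrocyte precursors, had the lower mean in knockout, unlike the other 5. Of its 9 windows, 7 were lower and 2 higher. The window at chromosome 16, 91220001 to 91225000, had the highest log2 ratio, 1.04, with 88 reads and 0.599 RPKM in knockout and 37 reads and 0.241 RPKM in control. The window at 91235001 to 91240000 had the lowest, -1.26, with 13 reads and 0.0886 RPKM in knockout and 54 reads and 0.352 RPKM in control. The top 1 kb of knockout, at 91241001 to 91242000, had 1.06 RPKM, against 0.815 RPKM in control, and that of control, at 91229001 to 91230000, had 0.613 RPKM in knockout and 1.27 RPKM in control. Its surroundings, where Olig1 is the next protein-coding gene in the GRCm38.p6 annotation, were at about the same level in both pools. The 100 kb before the interval had 0.369 RPKM in knockout and 0.383 RPKM in control, and the 100 kb after it 0.402 RPKM in knockout and 0.413 RPKM in control.

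**Figure D4:**
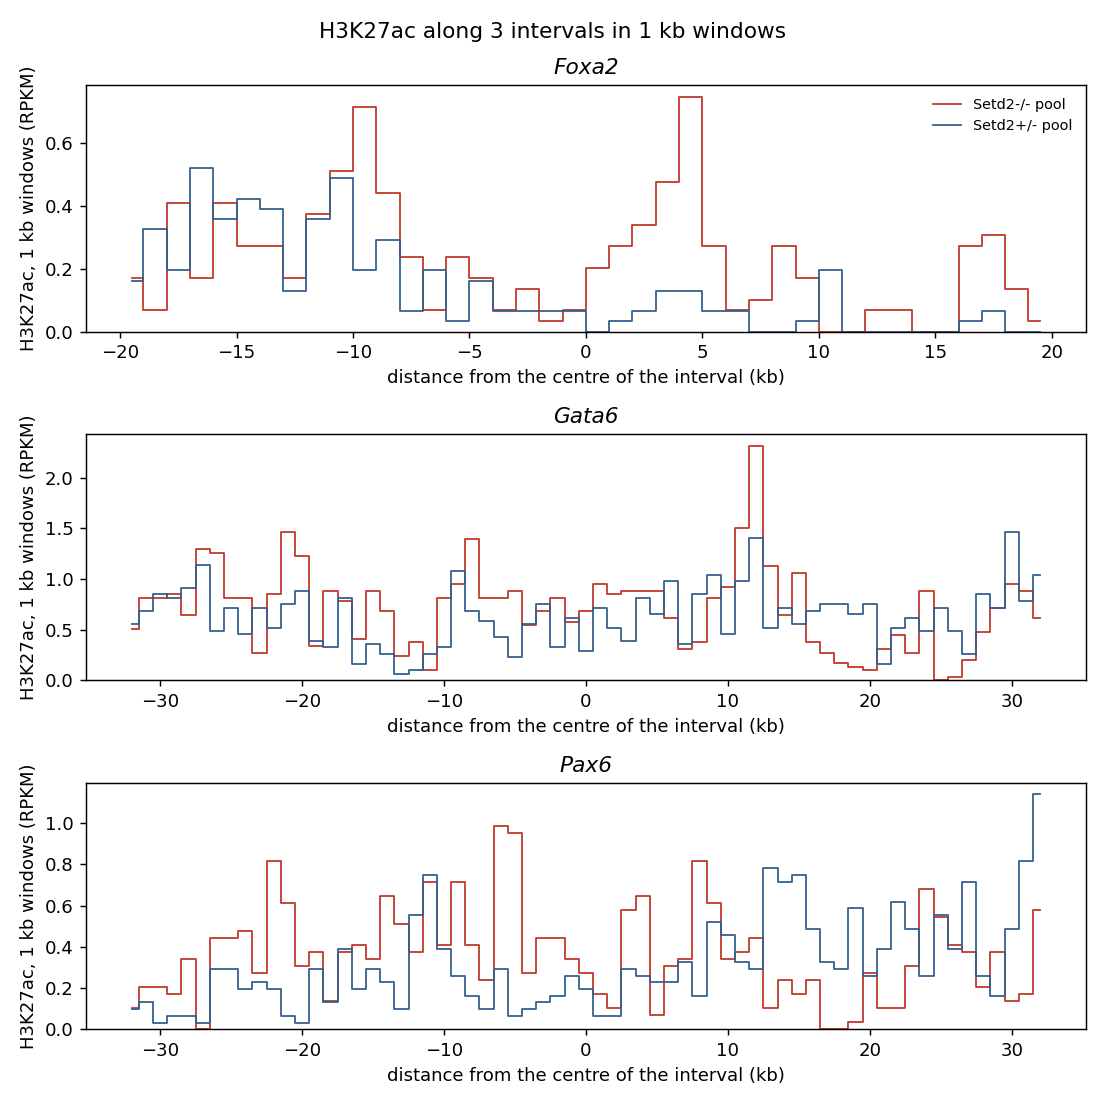
H3K27ac in RPKM per 1 kb window along the Foxa2, Gata6 and Pax6 intervals, by distance from the centre in kb, in the Setd2-/- pool (red) and the Setd2+/- pool (blue). Gata6 has a shared peak of 2.32 RPKM in knockout and 1.40 RPKM in control, while the highest 1 kb of Foxa2 in knockout, at 0.749 RPKM, has 0.130 RPKM in control.

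By Pearson's r, the shape of acetylation along the loci was partly shared between the genotypes, except at Pax6. By ranks it was also weak at Sox17 in windows of 2 kb. Across windows of 1 kb, Pearson's r between the pools was 0.51 at T (40 windows), 0.45 at Sox17 (40), 0.41 at Olig2 (45), 0.40 at Gata6 (65), 0.38 at Foxa2 (40) and -0.04 at Pax6 (65). Spearman's rho was 0.53, 0.34, 0.38, 0.25, 0.47 and -0.0047 in the same order. Across windows of 2 kb rho was 0.69, 0.11, 0.44, 0.39, 0.57 and -0.04 in that order. The 1 kb windows without a read in either pool, 2 at Sox17, 3 at Foxa2 and 1 at Olig2, also enter these values. No correlation over other autosomal sequence is set beside them. Neighbouring windows share their library, depth and base composition, and 1 kb holds few reads at the poorer loci, so these values are a description.

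Windows of dense acetylation were about as frequent as over the autosomes in knockout. In control they numbered only 2, though their share was larger than over the autosomes. All such windows, in either pool, lay at the 3 loci with the highest means. A level of 1.14 RPKM, which is 3 times the mean of either pool, was reached by 4 of the 59 windows in knockout (6.78%), 2 at T, 1 at Gata6 and 1 at Sox17, and 2 in control (3.39%), both at Sox17. Over the autosomes 6.49% of windows were as rich in knockout and 1.77% in control. The window of Sox17 at 4495001 to 4500000 was rich in both pools, with 1.17 RPKM in knockout and 1.16 RPKM in control.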

How the data were processed

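STAR ChIP-seq of H3K27ac in full-grown oocytes covered 2 genotypes with 2 replicates each, which share 1 deposited track per genotype, per the labels. The authors deposited RPKM for bins of 100 bp and listed no empty bins. The unit follows from the total of the values, which fits RPKM at that bin size. The submitters' processing notes name Bowtie2 2.2.2 and the mm9 build. Whether reads were extended, duplicates removed or an input subtracted is not given in the sources used, and each could alter values at pile-ups.

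Reads were recovered as whole multiples of the value of 1 read, 0.341 RPKM in knockout and 0.326 RPKM in control, within 0.005 RPKM for all but 3 knockout bins, and levels were computed from reads. Interval coordinates came from a fixed rule. The members, lists and rules were chosen with earlier results of these data known. Ratios have exact binomial (Clopper-Pearson) and levels exact Poisson intervals at 95%. Windows named are the highest and lowest log2 ratio of each interval and the top 1 kb of each pool. Code was tested on simulated data. Software comprised SciPy 1.17.1, NumPy 2.4.6, matplotlib 3.10.9, pandas 2.3.3 and Python 3.11.15. The other 54 samples were not analysed here.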

Additional observations from a re-analysis of the deposited data

How the results depend on the processing

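No paired analysis was possible because each track pools both replicates of a genotype, and leaving out a replicate could not be run for the same reason. At most 1 read per bin was an alternative chosen after seeing the data. The number of intervals past 2-fold, 0 higher and 0 lower, was 0 in both directions under each alternative run, 1.5-fold included. The 1.5-fold limit was applied on the scale with a pseudocount of 0.1. Without a pseudocount the ratio of Foxa2 was 1.64, past that limit, and with a pseudocount of 0.01 its log2 ratio was 0.67. No share of autosomal tiles is set beside these alternative counts, so they do not show that differences were absent. The median log2 ratio of the intervals, 0.16, was 0.058 with 10 kb added at each end and lay between 0.11 and 0.25 otherwise. Of 54 values for single intervals, 53 kept their direction, and that of Pax6 turned to -0.08 with 10 kb added at each end. The 5 kb windows added before it had 0.109 and 0.184 RPKM in knockout and 0.0587 and 0.0521 RPKM in control. Those added after it had 0.429 and 0.320 RPKM in knockout and 1.00 and 0.978 RPKM in control. Values of single intervals moved by over 1.5 times as follows. Foxa2, at 0.45, was 0.18 with a pseudocount of 0.5, 0.71 by the median over its 1 kb windows and 0.93 with 10 kb taken off each end. T, at 0.35, was 0.09 by that median, 0.13 with at most 1 read per bin and 0.14 with 10 kb taken off. Sox17, at 0.17, was 0.041 with 10 kb added and 0.057 by the median. Gata6, at 0.16, was 0.074 with 10 kb added, 0.11 with a pseudocount of 0.5, 0.29 by the median and 0.31 with 10 kb taken off. Pax6, at 0.16, was also 0.082 with a pseudocount of 0.5, 0.24 with 10 kb taken off and 0.29 by the median. Olig2, at -0.16, was -0.09 with a pseudocount of 0.5 and with at most 10 reads per bin, -0.049 with at most 1 and -0.04 with 10 kb taken off.

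Windows past 2-fold numbered 1 higher and 2 lower of 41, against 12.2% and 13.4% of autosomal windows. They numbered 0 and 0 with a pseudocount of 0.5 (41 windows, against 2.73% and 2.49%), with a filter at 2 times the mean (13, against 15.5% and 3%) and in 10 kb windows (20, against 10.4% and 11.5%). They numbered 6 and 4 with no filter (59, against 9.42% and 12.1%), in 2 kb windows (89, against 15.7% and 16.2%) and at 1.5-fold (41, against 26.7% and 24.5%). With autosomal means set equal 0 were higher of 41, against 10.9%, and with at most 10 reads per bin 1 was lower of 40, against 12.7%. With at most 1 read per bin 3 of 47 were higher (6.38%), against 2.48% of autosomal windows, so the share higher lay above the background there and under it in the setting reported. Rich windows, 4 in knockout and 2 in control, became 14 (23.7%) in knockout and 9 (15.3%) in control under a limit of 2 times the mean, against 16.8% and 14.1% of autosomal windows. In 2 kb windows they became 13 (8.9%) in knockout and 5 (3.42%) in control of 146, against 7.73% and 3.3%. In knockout and control they were 0 and 0 under a limit of 5 times the mean, against 0.304% and 0.00929%, and with at most 1 read per bin 0 and 0, against 0.0038% and 0%. The cause of these changes was not tested.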
